A study of Mus musculus with 11 samples.

Results

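The genes described here are 10 mouse genes of the NRF2 and glutathione defence: Nfe2l2, Gclc, Gclm, Srxn1, Nqo1, Txnrd1, Ephx1, Gsr, Slc7a11 and Hmox1. They were taken by symbol from the platform annotation, which names 17 probes of the 45281 on the array for 9 of the 10 genes. No probe used here carried the symbol Gsr, the gene of glutathione reductase, which was not analysed here. Their transcripts were measured in RNA of whole liver and spleen on 11 Illumina bead arrays, with 1 sample on each. All mice carried a Her2/neu transgene and were 14 weeks old at the end of treatment. The sources used here do not give the promoter that drives the transgene, and no group without the transgene was measured, so every value below belongs to transgenic mice. Liver came from mice given plain water (2 arrays, replicates 1 and 25), Curaxin-137 at 0.1 mg/ml in the drinking water (2 arrays, replicates 43 and 55) or Curaxin-137 at 0.2 mg/ml (2 arrays, replicates 73 and 85), for 10 weeks from 4 weeks of age. Spleen came from the same 3 treatments: replicate 8 was the single control, replicates 56 and 32 received 0.1 mg/ml, and replicates 62 and 62_86 received 0.2 mg/ml. Curaxins, to which Curaxin-137 belongs, are DNA-binding compounds developed as anticancer agents.

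NRF2, the protein of Nfe2l2, is a transcription factor that KEAP1 holds at a low level by sending it for degradation. Electrophiles and oxidants modify KEAP1, NRF2 then builds up, and with a small MAF partner it binds antioxidant response elements beside its target genes. Much of its control is therefore on the protein, which an RNA measurement does not show. The targets fall into a few roles. Gclc and Gclm encode the catalytic and the modifier subunit of glutamate-cysteine ligase, the first and limiting step of glutathione synthesis, and Slc7a11 encodes the transporter subunit that brings in cystine for it. Srxn1 (sulfiredoxin) restores over-oxidised peroxiredoxins, and Txnrd1 (cytosolic thioredoxin reductase) recharges thioredoxin with NADPH. Nqo1 reduces quinones, Ephx1 (microsomal epoxide hydrolase) opens epoxides, and Hmox1 (heme oxygenase) breaks down heme, a major task of the macrophages of the spleen that clear old red cells. Hepatocytes both make glutathione for export and carry out most of the body's detoxication.

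All values are log2 intensities after background correction and normalization within each organ, unless both organs are named. On this scale the dimmest detected probe of an array lay between 4.37 and 4.42 in liver and between 4.37 and 4.44 in spleen. Hepatocyte identity markers summed to 34502 to 40398 on the linear intensity scale in liver, against 209 to 252 in spleen. B cell markers summed to 3787 to 8233 in spleen, and 0 or 1 of their 6 genes with a probe was detected on any liver array. A pair of arrays had marker sums apart from those of their own organ. Control liver 25 had a summed neutrophil marker intensity of 4487, against 204 to 487 on the other livers. The control livers correlated with each other at 0.971, against 0.989 and 0.992 within the treated liver groups, which does not single out either: control 1 correlated at 0.974 and 0.978 with the livers at 0.2 mg/ml, and control 25 at 0.978 with each liver at 0.1 mg/ml. Spleen 32, at 0.1 mg/ml, had summed intensities of 36218 for erythroid and 12883 for neutrophil markers, against 18233 to 21496 and 1536 to 3704 on the other spleens. Its B cell markers were the lowest, at 3787, and it correlated at 0.948 with spleen 56 of its own group, against 0.989 for the pair at 0.2 mg/ml. In whole organs, a change in the number of cells of one type and a change in RNA per cell cannot be told apart.

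In the liver, both glutamate-cysteine ligase transcripts and that of sulfiredoxin had their lowest 2 arrays at 0.2 mg/ml, and that of epoxide hydrolase had its highest 2 at 0.1 mg/ml. No member passed an adjusted p of 0.05 in any of the 3 liver comparisons (limma, Benjamini-Hochberg over 12800 features), and none of the 12800 features did either (0% called in each), so the members are given as values and not as changes. Of the 10 genes, 7 were detected on at least 2 liver arrays and could be tested.

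Of the glutathione-synthesis pair, Gclm read 9.94 and 9.66 in control livers, 9.82 and 9.86 at 0.1 mg/ml, and 9.19 and 9.34 at 0.2 mg/ml. Both arrays at 0.2 mg/ml lay below all 4 others. The difference at 0.2 mg/ml was -0.53 against control (SE 0.17, adjusted p = 0.420, unadjusted p = 0.0125 by limma) and -0.57 against 0.1 mg/ml (SE 0.17, adjusted p = 0.416). Gclc read 7.04 and 6.39 in control livers, 7.02 and 6.66 at 0.1 mg/ml, and 6.35 and 5.92 at 0.2 mg/ml. Its arrays at 0.2 mg/ml were also the lowest, but replicate 73 at 6.35 and control 25 at 6.39 were almost level. The difference was -0.58 against control (SE 0.26, adjusted p = 0.575) and -0.71 against 0.1 mg/ml (SE 0.26, adjusted p = 0.468). The control pair of Gclc was far apart. With 1 control left out and the other arrays normalized again, the difference was -0.25 against control 25 and -0.89 against control 1.

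Among the thioredoxin-system members, only the sulfiredoxin gene, by its brightest probe, had its 2 highest-dose arrays well below the rest. Srxn1 read 7.47 and 7.52 in control livers, 7.23 and 7.67 at 0.1 mg/ml, and 6.84 and 6.84 at 0.2 mg/ml. The arrays at 0.2 mg/ml were level with each other and lay under all others. The difference was -0.66 against control (SE 0.18, adjusted p = 0.376, unadjusted p = 0.00729) and -0.61 against 0.1 mg/ml (SE 0.18, adjusted p = 0.434). The gene's 2 dimmer probes had the same sign at 0.2 mg/ml against control, with -0.54 and -0.21, but did not separate as cleanly. The first lay near the detection limit at 0.2 mg/ml, at 4.36 (not detected) and 4.41. The second overlapped with control, with replicate 73 at 5.94 and control 1 at 5.84. Txnrd1, by contrast, read 5.59 and 5.65 in control livers, 5.23 and 5.61 at 0.1 mg/ml, and 5.56 and 5.45 at 0.2 mg/ml. Its difference at 0.2 mg/ml against control was -0.11, with a 95% confidence interval from -0.52 to 0.30.

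Of the 2 detoxication enzymes, Ephx1 was the member that separated the doses most. Ephx1 read 11.26 and 10.76 in control livers, 11.52 and 11.53 at 0.1 mg/ml, and 10.68 and 10.79 at 0.2 mg/ml. The arrays at 0.1 mg/ml were the highest of the 6, while those at 0.2 mg/ml lay on either side of control 25. At 0.2 mg/ml it differed by -0.79 from 0.1 mg/ml (SE 0.20, adjusted p = 0.400, unadjusted p = 0.00369), which is 1.73-fold lower, and by -0.27 from control (SE 0.20, adjusted p = 0.718). At 0.1 mg/ml it differed by 0.52 from control (SE 0.20, adjusted p = 0.984, unadjusted p = 0.0294). This last value rested on control 25, since it was 0.25 without that array, with the others normalized again. The difference between the doses passed the threshold when either control liver was left out of the fit, with adjusted p = 0.0295 without control 1 and 0.0272 without control 25. Its size was then -0.79 both times, and what changed was the pooled spread, to which the control pair no longer contributed. Nqo1 lay near the detection limit, at 4.79 and 4.58 in control livers, 4.83 and 4.91 at 0.1 mg/ml, and 4.44 and 4.71 at 0.2 mg/ml. Its difference between the doses was -0.30 (SE 0.17, adjusted p = 0.606). The second Nqo1 probe was detected on no array of either organ.

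The transcript of the regulator itself showed no order by dose. Nfe2l2 read 6.10 and 5.73 in control livers, 6.31 and 6.04 at 0.1 mg/ml, and 6.21 and 5.77 at 0.2 mg/ml. All 3 groups overlapped, and the difference at 0.2 mg/ml against control was 0.08 (95% confidence interval -0.42 to 0.57). Hmox1 read between 4.13 and 4.44 across the livers and was detected on 1 of the 6 arrays, replicate 73. The brightest Slc7a11 probe was detected on none of the 6 livers, and a single array detected 1 of the other 4 probes. Neither gene could be tested for a dose difference in liver.

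**Figure D1:**
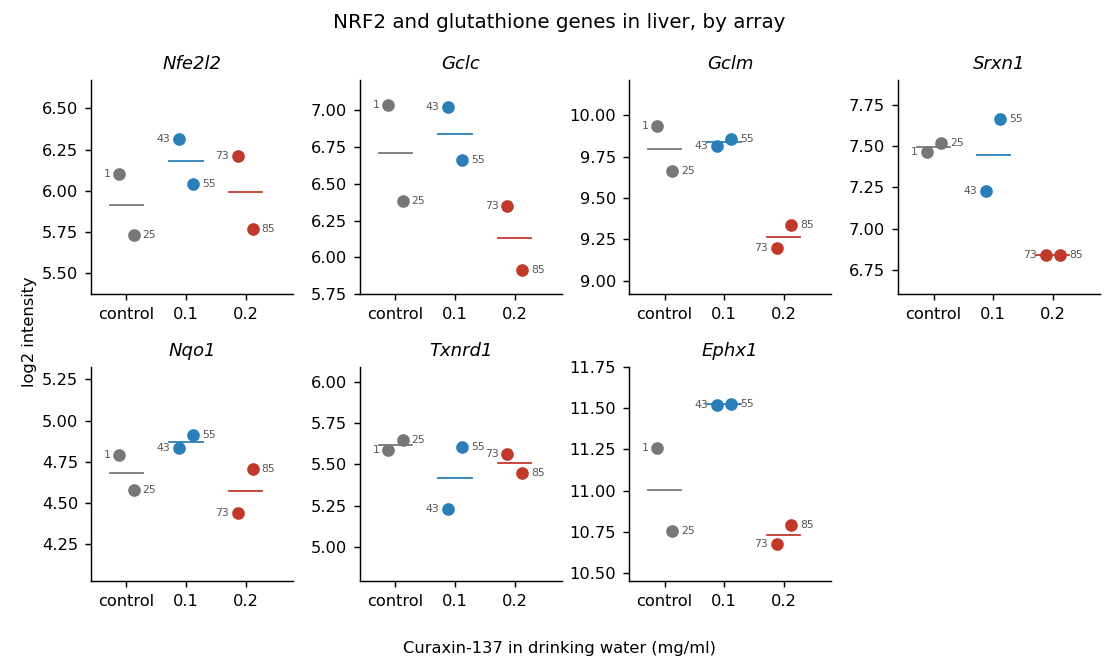
Log2 intensity (vertical axis, each panel with its own range) of the 7 members tested in liver, by dose of Curaxin-137 in mg/ml. Each point is 1 array with its replicate number, and each bar is the mean of 2 arrays. Gclm, Srxn1 and Gclc have their 2 lowest points at 0.2 mg/ml, Ephx1 its 2 highest at 0.1 mg/ml, and Nfe2l2 overlaps across all 3 doses.

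Counted over the members tested, 2 of 7 had an unadjusted p under 0.05 at 0.2 mg/ml against control, both lower (Srxn1 and Gclm), where 8.78% of all features had one and 3.84% were lower. At 0.2 against 0.1 mg/ml 4 of 7 did, all lower (Ephx1, Gclm, Srxn1 and Gclc), where the background was 9.51% in both directions and 4.38% lower. At 0.1 mg/ml against control 1 of 7 did (Ephx1, higher), against a background of 4.01% in both directions and 2.13% higher. Groups that did not overlap were common among all features, so the same count was read against 18.5% of features lower at 0.2 mg/ml against control, where 4 of 7 members were lower without overlap (Srxn1, Gclm, Gclc and Txnrd1), and against 22.8% at 0.2 against 0.1 mg/ml, where 5 of 7 were (Ephx1, Gclm, Srxn1, Gclc and Nqo1). The median difference of the 7 members was 0.13 at 0.1 mg/ml against control, -0.27 at 0.2 mg/ml against control and -0.57 at 0.2 against 0.1 mg/ml. Over all 12800 features these medians were -0.0027, 0.0077 and 0.0087. The comparisons share arrays, so they are not separate evidence.

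**Figure D2:**
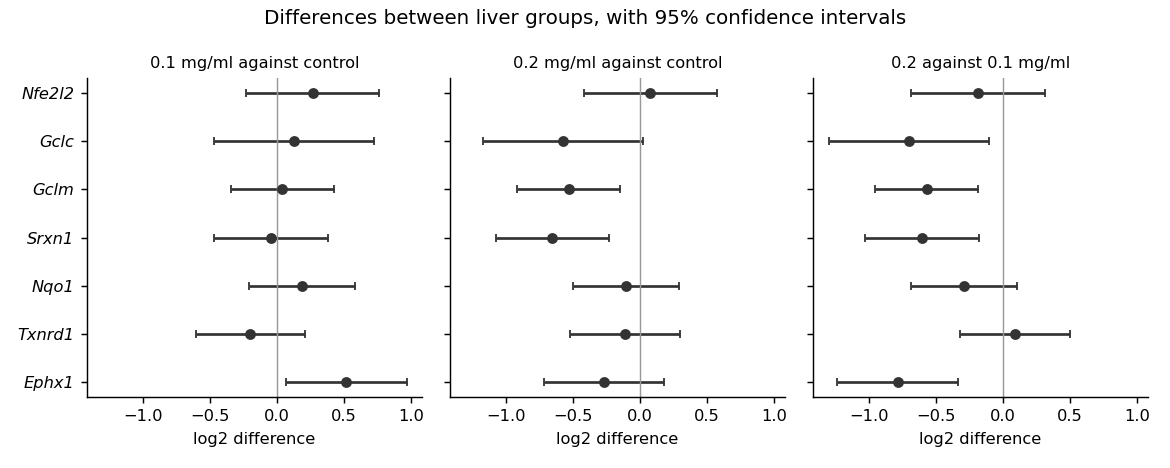
Log2 difference of each member between liver groups (horizontal axis), with points for the fitted difference and bars for the 95% confidence interval of limma, 2 arrays per group. In the panel of 0.2 against 0.1 mg/ml the intervals of Ephx1, Gclm, Srxn1 and Gclc lie below 0 before any adjustment, while those of Nfe2l2, Nqo1 and Txnrd1 span it.

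For Gclm and Srxn1, the members with an unadjusted p under 0.05 at 0.2 mg/ml against control, and for Txnrd1, which differed by -0.11, the stretches before the start that hold a core of the antioxidant response element are given here, from the RefSeq table of mouse build GRCm38.p6. Capitals mark the core, TGACNNNGC or TGAGNNNGC, on either strand, and positions are counted from the transcription start, with -1 the base before it.
Gclm, chr3:122245398-122245456, plus strand, core from -134 on the opposite strand: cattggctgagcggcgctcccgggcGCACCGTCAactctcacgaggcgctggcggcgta
Srxn1, chr2:152105341-152105399, plus strand, core from -158 on the opposite strand: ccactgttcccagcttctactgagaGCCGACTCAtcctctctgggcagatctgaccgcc
Srxn1, chr2:152105454-152105512, plus strand, core from -45 on the same strand: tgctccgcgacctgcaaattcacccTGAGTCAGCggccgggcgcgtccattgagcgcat
Txnrd1, chr10:82859089-82859147, plus strand, second of 3 starts, core from -92 on the opposite strand: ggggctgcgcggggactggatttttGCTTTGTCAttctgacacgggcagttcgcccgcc
The windows ran from 250 bases before to 50 bases after each start, and 7 of the 10 members had at least 1. Srxn1 held 3 matches, Gclm, Nfe2l2 and Slc7a11 1 each, Txnrd1 1 in 1 of its 3 windows, and Nqo1 and Ephx1 none. The third Srxn1 match lies after the start and is not printed. Gclc, Gsr and Hmox1 had no window in the table. Of all 32851 windows, 12.4% held TGACNNNGC, 17.6% held TGAGNNNGC and 27.8% held either. The match was thus found in Gclm and Srxn1, and also in Txnrd1 and Nfe2l2, whose differences at 0.2 mg/ml were -0.11 and 0.08. It is a match of letters only.

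In the rest of the glutathione pathway in liver, 0 genes passed the adjusted threshold in any list. Of 15 tested genes of glutathione making and use, 12 read lower at 0.2 mg/ml than in control livers, 4 of them with an unadjusted p under 0.05, and the list median was -0.22. Of all features 3.84% were lower at that unadjusted p, and 51.4% read higher whatever their p. The 12 included Cbs, which starts the conversion of homocysteine towards cysteine (-0.93, adjusted p = 0.288), Gss, which adds glycine in the second step of glutathione synthesis (-0.48, adjusted p = 0.475), and the mitochondrial glutaredoxin Glrx2 (-0.65, adjusted p = 0.423). At 0.2 against 0.1 mg/ml the same list was split, 8 higher and 7 lower, with 5 lower and 1 higher at an unadjusted p under 0.05, where 4.38% and 5.12% of all features were. The 5 included Cbs (-0.78, adjusted p = 0.389). Sqstm1, whose protein binds KEAP1 and whose gene is an NRF2 target, was -0.55 at 0.2 mg/ml against control (adjusted p = 0.376) and -0.76 against 0.1 mg/ml (adjusted p = 0.379). Its list of NRF2 sensor and partner genes had no common direction, with 3 higher and 7 lower of 10 against control and 6 higher and 4 lower between the doses. Mafg, a small MAF partner, was 0.35 against control (adjusted p = 0.595) and 0.32 against 0.1 mg/ml (adjusted p = 0.572), and Bach1, a repressor of NRF2 targets, was 0.32 against control (adjusted p = 0.769). Keap1 was 0.28 at 0.2 against 0.1 mg/ml (adjusted p = 0.665) and -0.40 at 0.1 mg/ml against control (adjusted p = 0.984).

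The glutathione transferases, which attach glutathione to electrophiles, had no common direction. At 0.2 mg/ml against control 12 of 20 tested genes were higher and 8 lower (median 0.04), and at 0.2 against 0.1 mg/ml 8 were higher and 12 lower (median -0.06). Gstp1 was -1.55 (adjusted p = 0.400), Gstm4 was -1.04 (adjusted p = 0.402) and Gstt3 was 0.99 (adjusted p = 0.389) between the doses. Probes of such closely related families may bind transcripts of more than 1 member. In the thioredoxin list Txnip, whose protein binds thioredoxin, read 1.15 higher at 0.1 mg/ml (adjusted p = 0.984) and 1.48 higher at 0.2 mg/ml (adjusted p = 0.297), and Txn1, thioredoxin itself, was -0.72 at 0.2 mg/ml (adjusted p = 0.401). Of other detoxication genes under NRF2 control, 10 of 16 were higher and 6 lower at 0.2 mg/ml against control, with the carbonyl reductase Cbr1 at -0.75 (adjusted p = 0.405) and the aldo-keto reductase Akr1b8 at 0.50 (adjusted p = 0.559). Of the enzymes that supply NADPH to these reductases, 4 of 5 were lower at 0.2 mg/ml than at 0.1 mg/ml, with Nnt at -0.61 (adjusted p = 0.409).

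ATF4, the factor of the amino acid response, shares targets such as Slc7a11 and Chac1 with glutathione metabolism, and its targets read low at the same dose. Of 13 tested, 11 were lower at 0.2 mg/ml than in control livers, 5 with an unadjusted p under 0.05, against 3.84% of all features. Those with the smallest unadjusted p were Atf5 at -1.75 (adjusted p = 0.179), Asns, asparagine synthetase, at -1.64 (adjusted p = 0.224) and Mthfd2 at -0.76 (adjusted p = 0.341). At 0.2 mg/ml Asns averaged 4.39 and Mthfd2 4.49, where the dimmest detected probe lay at 4.42 and 4.40. The sizes of the Asns and Mthfd2 differences are therefore not well measured. The macrophage markers, which mark Kupffer cells in liver, summed to 1130 and 1618 in control livers, 1521 and 1439 at 0.1 mg/ml, and 1628 and 2035 at 0.2 mg/ml. Hepatocyte identity markers summed to 34685 and 34502 in control livers, 39932 and 37562 at 0.1 mg/ml, and 40398 and 39857 at 0.2 mg/ml. Endothelial markers summed to 1733 and 1649 in control livers, 2249 and 2049 at 0.1 mg/ml, and 2439 and 2794 at 0.2 mg/ml, and fibroblast markers to 2517 and 1532, 2673 and 2274, and 2229 and 2190 in the same order. Of the endothelial genes 4 of 9, and of the fibroblast genes 4 of 7, were higher at 0.2 mg/ml than in control livers at an unadjusted p under 0.05, where 4.94% of all features were, among them Oit3 (0.92, adjusted p = 0.288) and Lum (0.94, adjusted p = 0.297). Their part in the liver values was not tested.

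Gclc had the widest range of the members over the liver arrays, 1.12. Among 10239 other named genes, the 5 whose centred values lay closest to it were Tlr5, Cfb, Aldh16a1, Inhbc and Atp5d, with mean absolute differences of 0.069 to 0.085 over 6 arrays. Tlr5, the flagellin receptor, read 6.32 and 5.56 in control livers, 6.12 and 5.93 at 0.1 mg/ml, and 5.54 and 4.98 at 0.2 mg/ml. All 5 had, like Gclc, control 25 below control 1 and replicate 85 at the bottom. They were picked for this likeness, so it is a description.

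In the spleen, 9 members could be tested on 5 arrays with a single control, and no member passed the adjusted threshold in any comparison. Of 14179 features 0% were called at either dose against control and 0.00705% (1 feature) between the doses. Spleen 32, at 0.1 mg/ml, was the highest array for 5 of the 9 members (Gclm, Srxn1, Nqo1, Gclc and Txnrd1) and the lowest for Ephx1 and Hmox1. Gclm read 7.16 in the control spleen, 7.60 and 9.55 at 0.1 mg/ml, and 7.66 and 7.84 at 0.2 mg/ml. The 9.55 belongs to spleen 32, and the other 3 treated spleens lay close together, also above the control. The difference at 0.1 mg/ml against control was 1.42 (SE 0.70, adjusted p = 0.554), and without spleen 32 it was 0.45. At 0.2 mg/ml it was 0.59 (SE 0.70, adjusted p = 1.00).

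Among the members with this array at the top, Srxn1 and Nqo1 followed Gclm in the size of the gap to control. Srxn1 read 4.96 in the control spleen, 5.37 and 5.94 at 0.1 mg/ml, and 5.39 and 5.20 at 0.2 mg/ml. Such a gap to a single control was common: 34.3% of all features were higher without overlap at 0.1 mg/ml and 36.8% at 0.2 mg/ml. The 4 treated spleens lay above the control for Srxn1, by 0.69 at 0.1 mg/ml (adjusted p = 0.536) and 0.33 at 0.2 mg/ml (adjusted p = 1.00), while the gene's second detected probe differed by 0.19 at 0.1 mg/ml and by -0.21 at 0.2 mg/ml. Nqo1 read 4.29 in the control spleen, where it was not well above background, 4.57 and 5.53 at 0.1 mg/ml, and 4.63 and 4.32 at 0.2 mg/ml. Against the floor of the control array, 4.39, its mean was at least 1.58-fold higher at 0.1 mg/ml (fitted adjusted p = 0.599), which leaned on spleen 32. The mean at 0.2 mg/ml was at least 1.06-fold higher, but 1 of the 2 arrays detected it and 62_86, at 4.32, lay under that floor. The fitted confidence intervals, -0.26 to 1.77 and -0.83 to 1.20, both include no difference. Only treated spleens detected Nqo1, so a value above control was built into its selection, and these folds support no dose difference. With spleen 56 left out, spleen 32 alone stands for 0.1 mg/ml, and Gclm, Srxn1 and Nqo1 then passed, with 2.35, 0.82 and 1.01 against control (adjusted p = 4.09e-07, 0.0232 and 0.00636). The spread then comes from the pair 62 and 62_86 alone, which shares a number and may not be 2 animals, so these values describe spleen 32 and no group.

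Spleen 32, the array behind these values, also had the highest erythroid and neutrophil marker sums of the spleens. Gclm had the widest range of the members over the spleens, 2.39, and its 5 nearest of 11016 other named genes were Chil1, Hdc, Cenpp, Nipa1 and C730029A08Rik, with mean absolute differences of 0.045 to 0.108 over 5 arrays. Chil1, a chitinase-like gene, and Hdc, the enzyme that makes histamine, read 7.69 and 8.50 on spleen 32 and no more than 5.90 and 6.80 on any other spleen. All 7 erythroid markers with a probe were detected on every spleen, and 9 of 10 neutrophil markers were. The part of these cells in the Gclm, Srxn1 and Nqo1 values was not tested.

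**Figure D3:**
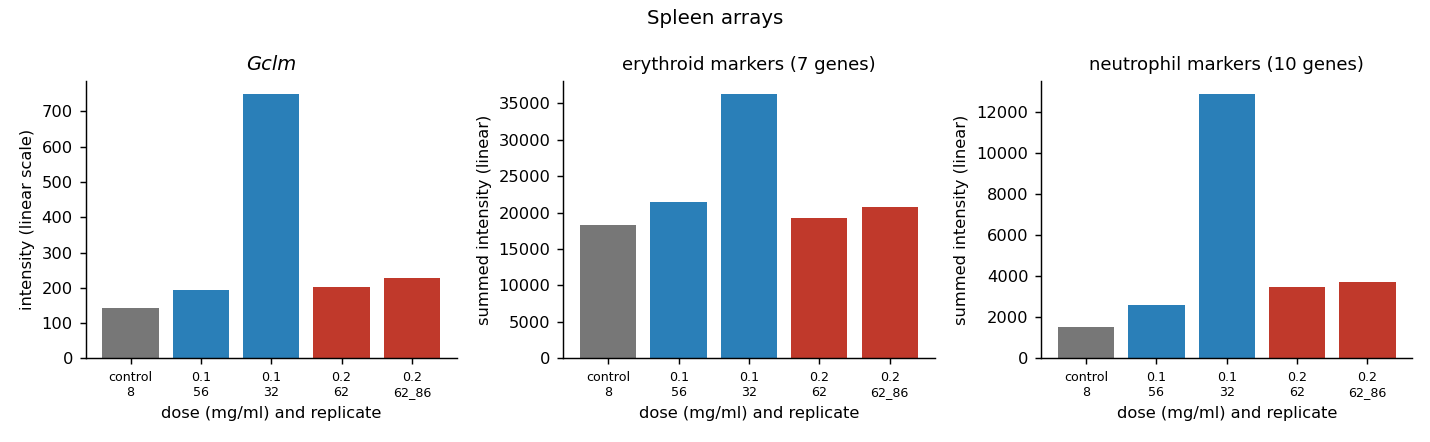
Intensity of Gclm and summed intensity of the erythroid markers (7 genes) and neutrophil markers (10 genes) on the 5 spleen arrays, all on a linear scale from 0, with dose in mg/ml and replicate number on the horizontal axis. Each bar is 1 array. Spleen 32, at 0.1 mg/ml, is the highest in all 3 panels, with marker sums of 36218 and 12883.

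Hmox1 had its highest spleen mean at 0.2 mg/ml, and the brightest Slc7a11 probe had its lowest there. Hmox1 read 5.89 in the control spleen, 6.30 and 5.72 at 0.1 mg/ml, and 6.50 and 6.54 at 0.2 mg/ml. The pair at 0.2 mg/ml was the highest, by 0.63 over control (SE 0.32, adjusted p = 0.958) and 0.52 over 0.1 mg/ml (SE 0.26, adjusted p = 0.605). Without spleen 56, and with the remaining arrays normalized again, the difference between the doses was 0.72. That leaves spleen 32 alone at 0.1 mg/ml and the spread to the pair 62 and 62_86. Of the 9 members Hmox1 was the one without overlap between the doses, where 40.4% of all features did not overlap. Of 8 heme and iron partners, 7 were higher than in the control spleen at 0.2 mg/ml, against 49.5% of all features, and 0 passed. The iron exporter Slc40a1 was 0.87 there (adjusted p = 0.681) and Blvrb, a biliverdin reductase, 0.71 (adjusted p = 1.00). At 0.1 mg/ml 6 of the 8 were higher, against 51.8% of all features, while Hmox1 was 0.12 over control with overlap. Macrophage markers summed to 3100 in the control spleen, 5232 and 3803 at 0.1 mg/ml, and 6452 and 6024 at 0.2 mg/ml. Of their 13 genes with a probe, 10 were detected on every spleen, and their part in the Hmox1 value was not tested. Slc7a11 read 5.87 in the control spleen, 5.56 and 5.22 at 0.1 mg/ml, and 5.34 and 5.01 at 0.2 mg/ml. Its difference at 0.2 mg/ml against control was -0.69 (SE 0.30, adjusted p = 0.901). All 4 treated arrays lay below the single control, where 32.3% of all features were lower without overlap at 0.1 mg/ml and 38.5% at 0.2 mg/ml. A dimmer Slc7a11 probe, detected on 4 of the 5 spleens, went the other way, with 0.18 at 0.1 mg/ml and 0.15 at 0.2 mg/ml.

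The remaining 4 members overlapped between the 2 doses in spleen. Ephx1 read 9.28 in the control spleen, 9.35 and 8.69 at 0.1 mg/ml, and 9.29 and 9.28 at 0.2 mg/ml. Spleen 32 was the low array there, and the other 4 were almost level. Gclc ran from 4.41 to 4.98 and Txnrd1 from 4.69 to 4.95 with the control inside both ranges. Nfe2l2 read 5.92 in the control spleen, 5.16 and 5.62 at 0.1 mg/ml, and 6.18 and 5.49 at 0.2 mg/ml, and its group at 0.1 mg/ml was -0.52 against control (SE 0.38, adjusted p = 0.688). No member had an unadjusted p under 0.05 in the 3 spleen comparisons, where 9.79% of features did at 0.1 mg/ml against control, 5.68% at 0.2 mg/ml against control and 9.01% between the doses.

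**Figure D4:**
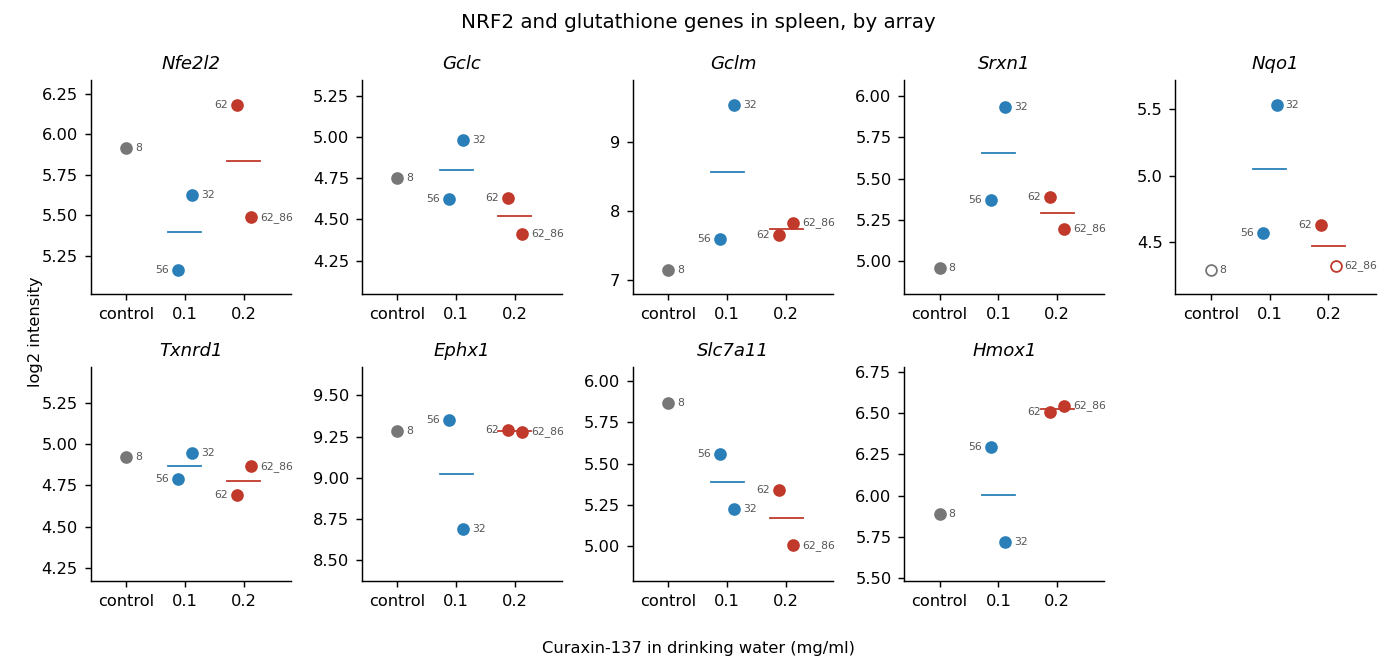
Log2 intensity (vertical axis, each panel with its own range) of the 9 members tested in spleen, by dose of Curaxin-137 in mg/ml. Each point is 1 array with its replicate number, open where the probe was not detected, and bars are means of 2 arrays (the control is 1 array). Spleen 32 is the highest for Gclm, Nqo1, Srxn1, Gclc and Txnrd1, by little in the last, and the lowest for Ephx1 and Hmox1, and Hmox1 is highest on both arrays at 0.2 mg/ml.

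Of the wider lists, glutathione making and use and the transferases had more genes above the single control spleen than below it, and 0 passed. Against that control 51.8% of all features read higher at 0.1 mg/ml and 49.5% at 0.2 mg/ml. The NRF2 sensor and partner genes (3 higher and 7 lower at each dose) and the NADPH supply genes (2 higher and 3 lower at each dose) leaned the other way. At 0.1 mg/ml 10 of 12 tested genes of glutathione making and use were above control (median 0.27), with Gpx3 at 1.45 and Gpx1 at 1.09, both glutathione peroxidases (adjusted p = 0.457 each). At 0.2 mg/ml 8 of 12 were above control (median 0.17), and Gpx3 was 1.42 (adjusted p = 0.473). Gsta3 was 1.20 at 0.1 mg/ml (adjusted p = 0.457) and 1.71 at 0.2 mg/ml (adjusted p = 0.258), in a transferase list where 12 of 17 were higher at each dose. The peroxiredoxin Prdx2, abundant in red cells, was 2.02 at 0.1 mg/ml (adjusted p = 0.457), and the erythroid marker list had a median of 1.14 there. Erythroid marker sums were 36218 on spleen 32 and 21496 on spleen 56, against 18233 in the control spleen. All these values at 0.1 mg/ml include spleen 32, and the part of red cells in them was not tested. Akr1b8 was 0.67 at 0.1 mg/ml (adjusted p = 0.503) and 0.97 at 0.2 mg/ml (adjusted p = 0.586).

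Whether the response differed between the organs was tested as an interaction over all 11 arrays. No member passed, where 0% of 16179 features did for 0.1 mg/ml against control, 0.0494% for 0.2 mg/ml against control and 0.00618% for 0.2 against 0.1 mg/ml. For 0.2 mg/ml against control, Srxn1 by its brightest probe differed by -0.89 in liver minus spleen (SE 0.33, adjusted p = 0.490, unadjusted p = 0.0233). That value rests on the single control spleen. The gene's other probe detected on all 11 arrays differed from control by -0.21 in liver and by -0.21 in spleen, each organ normalized by itself. For 0.2 against 0.1 mg/ml, Ephx1 differed by -1.10 (SE 0.36, adjusted p = 0.536, unadjusted p = 0.0143). They were the only members with an unadjusted p under 0.05 in the 3 interactions, where 9.85%, 8.34% and 8.02% of all features had one. The Ephx1 value leaned on spleen 32: without that array it was -0.70, and without spleen 56 it was -1.54 and passed (adjusted p = 0.0194), with spleen 32 alone at 0.1 mg/ml and the spread taken from the liver pairs and from 62 and 62_86.

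The clear differences in these genes were between the organs. With liver and spleen normalized together, 8 of 9 members passed an adjusted p of 0.05, where 62.3% of all features did. The 2 lower in liver, Hmox1 and Slc7a11 (background 36.7%), entered the test through their spleen values, so a difference in that direction was built into their selection and their count supports nothing. Without them 6 of 7 members passed, all higher in liver (background 25.6%). Srxn1 ran 2.45 above spleen (SE 0.13, adjusted p = 1.59e-07), Gclc 2.29 (SE 0.15, adjusted p = 9.57e-07) and Gclm 2.04 (SE 0.34, adjusted p = 0.000506), which are 5.48-fold, 4.88-fold and 4.12-fold. The Srxn1 value is that of its brightest probe. By plain array means its dimmer probes were 1.53 and 0.65 above spleen, the latter detected on 0 of 5 spleens. For Gclm spleen 32 reached into the liver range. Ephx1 was 1.83 higher in liver (adjusted p = 5.84e-06), Txnrd1 1.13 (adjusted p = 9.08e-06) and Nfe2l2 0.89 (adjusted p = 0.00114). The ranges of the 2 organs did not overlap for 7 of the 9 members, where 48.4% of all features did not. That count again includes Hmox1 and Slc7a11, so it supports nothing. Of the other 7 members 5 did not overlap, all higher in liver, where 20.0% of all features were higher without overlap. Nqo1 differed by 0.40 (SE 0.16, adjusted p = 0.0559) and was detected on all 6 livers and on 3 of 5 spleens. It passed without spleen 32 (0.54, adjusted p = 0.00348) and without liver 73 (0.47, adjusted p = 0.0491).

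Hmox1 was detected on 1 of 6 livers and on 5 of 5 spleens. Its liver mean of 4.28 lay below the dimmest detected probe of every liver array (4.43 to 4.51 with both organs together), so its fitted difference of -1.57 (adjusted p = 4.00e-06) does not measure the size of the gap to the spleen mean of 5.90. By its brightest probe, Slc7a11 was at least 1.6-fold lower in liver (fitted adjusted p = 2.28e-05), where 0 of 6 arrays detected that probe, against 5 of 5 spleens. A dimmer probe, detected on 1 of 6 livers and 4 of 5 spleens, differed by -0.10. The remaining Slc7a11 probes, detected on at most 2 arrays, differed by -0.09 to 0.01. Replacing quantile normalization by a scaling to each array's 75th percentile moved the median of all 16179 features to 0.21, against -0.07, and the 8 members kept their direction under it. Among the wider lists, counting genes with an adjusted p under 0.05, glutathione making and use had 11 of 15 higher and 1 lower in liver. The transferases had 17 of 21 higher and 2 lower, and other NRF2-regulated detoxication 12 of 17 higher and 3 lower. In the same order, 12, 17 and 12 genes of these lists were detected on at least 2 spleen arrays. The rest entered the test through liver values. A higher value in liver was built into their selection, so these list counts support nothing. At that threshold 25.6% of all features were higher and 36.7% lower. The transferases Gsta3 and Mgst1 were 6.03 and 6.38 above spleen (adjusted p = 1.09e-10 and 1.61e-10), and Cbs was 5.22 above it (adjusted p = 1.09e-10).

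**Figure D5:**
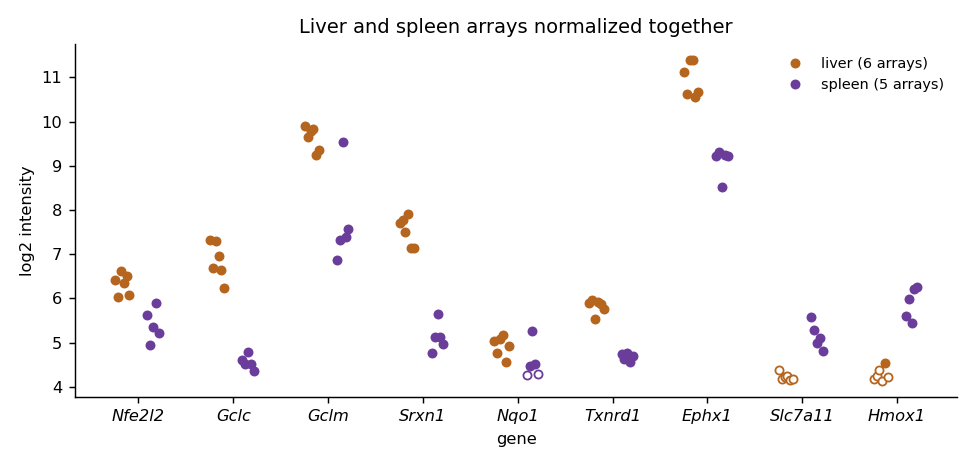
Log2 intensity of the 9 members on 6 liver arrays (left of each pair) and 5 spleen arrays (right of each pair), normalized together. Open points were not detected. The 2 organs do not overlap for Nfe2l2, Gclc, Srxn1, Txnrd1, Ephx1, Slc7a11 and Hmox1, while they overlap for Gclm, through 1 spleen, and for Nqo1.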

How the data were processed

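The authors deposited probe intensities summarised over beads, for which the submitters' processing notes name GenomeStudio 1.6.0. Beside them stand deposited detection p-values, per the file headers, whose method the sources used here do not give. The deposited log2 values of the series matrix equal quantile-normalized log2 signals of all 11 arrays (largest gap 5.00e-09). From the signals, limma 3.58.1 in R 4.3.3 ran neqc (normexp background correction, offset 16, quantile normalization, log2) within each organ, or over both for organ comparisons. Probes detected at p under 0.05 on at least 2 arrays were kept, 1 per gene, the one of highest mean. This left 12800 features in liver, 14179 in spleen and 16179 in both. Group means were fitted with lmFit and tested with eBayes and Benjamini-Hochberg adjustment over all features, in 10 comparisons. Residual degrees of freedom were 3, 2 and 5. Where the dimmer group was undetected, a fold is a bound against each array's dimmest detected probe, averaged over the group. Nothing says whether arrays of a group came from different litters or cages, so the p-values reflect spread among these samples, which may be technical. The spleen labels 62 and 62_86 share a number, so those arrays were also averaged as 1 sample. Where 1 array was left out, the remaining arrays were normalized and filtered again. Differences from such fits can therefore depart slightly from those between the printed values. No batch is given.

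The members, the 21 further lists and the tests were chosen with earlier results of these data known. The text names all members, up to 3 genes per list by unadjusted p, and the 5 genes nearest in pattern to the member of widest range in each organ. The fit was tested on simulated data. The number of arrays limits the precision.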

Additional observations from a re-analysis of the deposited data

Results flagged for a closer look

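Spleen replicate 32, at 0.1 mg/ml, lay apart from the other 4 spleens for 3 genes, by the gap to its nearest neighbour as a share of the whole range, with a critical value of 0.71 for 5 arrays. The share was 0.716 for Gclm, which read 9.55 on that array and at most 7.84 elsewhere. It was 0.730 for Nqo1, at 5.53 against at most 4.63. It was 0.889 for Ephx1, at 8.69 against at least 9.28, the one of the 3 where the array was low. These are 3 of 16 gene and organ combinations checked, the 5 spleens are groups of different doses set side by side, and chance alone puts about 1 in 20 such groups past the critical value. The same array had the highest erythroid and neutrophil marker sums of the 5 spleens and the lowest mean signal of the 11 arrays, 94.7. The part of these in the values was not tested.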

How the results depend on the processing

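Scaling to the 75th percentile turned 7 small differences: at 0.1 mg/ml against control in liver Gclc to -0.049 and Gclm to -0.15, at 0.2 mg/ml against control in liver Nfe2l2 to -0.049, at 0.1 mg/ml against control in spleen Gclc to -0.17, at 0.2 mg/ml against control in spleen Ephx1 to -0.070, and at 0.2 against 0.1 mg/ml in spleen Gclc to 0.064 and Txnrd1 to 0.13. The strict detection filter left 5 members to test between the organs, and all 5 passed. Nqo1 passed between the organs with 75th percentile scaling (0.62) and with an intensity trend and robust moderation (0.40). The other alternatives without a left-out array (no background correction, the authors' normalized values, no detection filter, all arrays fitted together, averaging spleens 62 and 62_86) kept the direction of every member and its side of the threshold.

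With 1 array left out, members passing ranged from 0 to 1 at 0.2 against 0.1 mg/ml in liver, 0 to 3 at 0.1 mg/ml against control and at 0.2 against 0.1 mg/ml in spleen, and, for liver minus spleen, 0 to 1 at 0.1 mg/ml against control and 0 to 2 at 0.2 against 0.1 mg/ml. The liver call came without control 1 or 25, the others without spleen 56, which leaves spleen 32 alone in its group. In the spleen fits the spread then comes from 62 and 62_86 alone, which may not be 2 animals, so those calls describe spleen 32. Differences that turned had these ranges. In liver, at 0.1 mg/ml against control: Gclc -0.20 to 0.45, Gclm -0.098 to 0.17 and Srxn1 -0.27 to 0.17. At 0.2 mg/ml against control: Nfe2l2 -0.15 to 0.30 and Nqo1 -0.25 to 0.024. At 0.2 against 0.1 mg/ml: Nfe2l2 -0.41 to 0.033 and Txnrd1 -0.10 to 0.27. In spleen, at 0.1 mg/ml against control: Ephx1 -0.60 to 0.070, Gclc -0.14 to 0.18, Hmox1 -0.15 to 0.41 and Txnrd1 -0.15 to 0.017. At 0.2 mg/ml against control: Ephx1 -0.0029 to 0.0046 and Nfe2l2 -0.44 to 0.27. At 0.2 against 0.1 mg/ml: Ephx1 -0.069 to 0.60 and Gclm -1.79 to 0.15, where 0.15 is the value without spleen 32. The cause was not tested. No paired analysis was possible because the groups compared share no replicate numbers. Signal over background limits Nqo1 in both organs and Hmox1 and Slc7a11 in liver.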
